A study of Rattus norvegicus with 102 samples.

Results

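The 6 genes described here mark the oligodendrocyte lineage, from the precursor cell to the myelinating cell: Pdgfra, Cspg4, Gpr17, Olig1, Olig2 and Sox10. They were taken by their gene symbols from expression tables that listed 26284 genes (Illumina and WT) or 26341 genes (Ion Proton), and each symbol had exactly 1 row in every table. The libraries came from the hippocampus of 34 male Fischer 344 rats, with 1 library from each of the subfields CA1, CA3 and dentate gyrus (DG) of every rat in each of 3 expression tables. The rats were young (10 rats, 5 to 6 months), aged unimpaired (12 rats) or aged impaired (12 rats), and all aged rats were 17 to 22 months old. Aged rats were called impaired or unimpaired from the discrimination index of a water maze probe trial, and the labels name no treatment. Poly-A selected RNA of these rats was sequenced by Illumina and, from the same preparations, by Ion Proton, and the table labelled WT was used as an alternative only. A subfield library is a dissected block of tissue that holds neurons, glia, vessels and fibre layers.

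Oligodendrocyte precursor cells are spread through grey and white matter of the adult brain, where they divide, survey their surroundings and give rise to new myelinating oligodendrocytes. Pdgfra encodes the receptor for the growth factor PDGF-AA, the main mitogen of these precursors, and Cspg4 encodes the proteoglycan NG2 on their surface. Both genes are turned off as the cell matures, whereas vessel pericytes also make NG2 and fibroblasts of the meninges also make Pdgfra. Gpr17 encodes a receptor found for a short time in cells committed to differentiate. Olig1, Olig2 and Sox10 are transcription factors that are present from the precursor to the mature oligodendrocyte and are needed for the lineage and for myelin gene expression.

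Olig1 and Olig2 lie on chromosome 11 as direct neighbours, with 0 annotated genes between their starts in the RefSeq annotation of rat assembly GRCr8, whereas Pdgfra is on chromosome 14, Cspg4 on chromosome 8, Gpr17 on chromosome 18 and Sox10 on chromosome 7 in the deposited tables. RefSeq promoter windows of GRCr8, from 250 bases before to 50 bases after the annotated gene start, were found for 4 of the 6 members, Olig1 and Sox10 being the others. The windows of Pdgfra, Cspg4 and Olig2 are shown because these genes were all lowest in DG, while of these only Olig2 had a CA3 minus DG difference that differed between the series of rat numbers in both poly-A tables. The capitals mark E-boxes (CANNTG), the core bound by the factor class of Olig1 and Olig2. The Pdgfra window is chr14:33408467-33408766 on the minus strand, the Cspg4 window chr8:66160692-66160991 on the plus strand and the Olig2 window chr11:43961335-43961634 on the plus strand, each printed 5′ to 3′.
Pdgfra: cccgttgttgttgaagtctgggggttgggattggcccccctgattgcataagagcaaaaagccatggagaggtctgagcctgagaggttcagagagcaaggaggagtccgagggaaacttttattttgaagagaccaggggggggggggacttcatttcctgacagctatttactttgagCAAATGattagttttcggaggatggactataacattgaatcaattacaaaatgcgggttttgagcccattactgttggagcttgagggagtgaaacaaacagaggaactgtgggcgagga
Cspg4: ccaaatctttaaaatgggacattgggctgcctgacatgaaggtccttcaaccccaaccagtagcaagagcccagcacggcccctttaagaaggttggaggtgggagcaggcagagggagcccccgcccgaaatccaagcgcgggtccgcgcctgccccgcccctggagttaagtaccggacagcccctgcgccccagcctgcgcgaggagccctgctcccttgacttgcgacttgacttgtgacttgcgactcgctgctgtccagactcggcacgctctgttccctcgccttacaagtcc
Olig2: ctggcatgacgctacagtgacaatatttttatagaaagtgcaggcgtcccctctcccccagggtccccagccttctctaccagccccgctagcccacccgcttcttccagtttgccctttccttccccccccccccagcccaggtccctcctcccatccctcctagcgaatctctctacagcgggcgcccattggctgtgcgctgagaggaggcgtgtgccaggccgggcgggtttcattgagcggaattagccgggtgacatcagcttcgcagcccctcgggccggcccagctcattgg
The Pdgfra window held 1 E-box, and the Cspg4, Olig2 and Gpr17 windows held 0. Among all 33469 promoter windows of this length, 72.1% held at least 1. The SOX-type core ACAAAG or ACAATG, searched on both strands with overlaps allowed, had 0 matches in the 4 members' windows and at least 1 in 29.1% of all windows. A match is only a match of letters, and a window without one says nothing about the factor.

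Values are given as normalised read counts, that is the reads of a gene divided by the size factor of the library. In units of 1000000 reads, Illumina libraries held 3.25 to 42.8 (median 10.8) and Ion Proton libraries 4.47 to 21.4 (median 9.74). The members were well above the counting limit: the lowest read number behind an Illumina value was 53, for Gpr17 in DG, and the highest was 8293, for Olig1 in CA3. By markers of the 3 subfields, 10 libraries stood nearer to another subfield than to their label in both poly-A tables, 1 labelled CA1, 5 CA3 and 4 DG. They came from 7 rats, of which 6 carried numbers from 9000 up, and they were kept under their labels unless stated. In 2 rats numbered from 9000 up, a pair of libraries stood each nearest to the label of the other, CA3 and DG in 1 rat and CA1 and DG in 1 rat. The rat numbers formed 2 series, below 9000 (18 rats: 5 young, 6 unimpaired, 7 impaired) and from 9000 up (16 rats: 5 young, 6 unimpaired, 5 impaired). Rats were characterised at the University of Arizona and the University of Florida, with a different supplier at each, and the division of young and aged rats between these sites in the methods of the study equals that between the series. The labels do not give the site of a rat, so that series, site and supplier cannot be told apart here.

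The first comparison asked how the subfields differ irrespective of age and cognition. All 6 members were lowest in DG. In CA3 minus DG, 6 of 6 were higher in CA3 with an adjusted p under 0.05 (limma) in both the Illumina and the Ion Proton table, against a background of 14.1% of 13907 genes called higher in CA3 and 14.3% called lower. Their median log2 difference was 0.53 on Illumina and 0.66 on Ion Proton, while the median of all genes tested on Illumina was 0.0099. In bulk tissue, fewer cells of a type and less RNA per cell cannot be told apart.

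**Figure D1:**
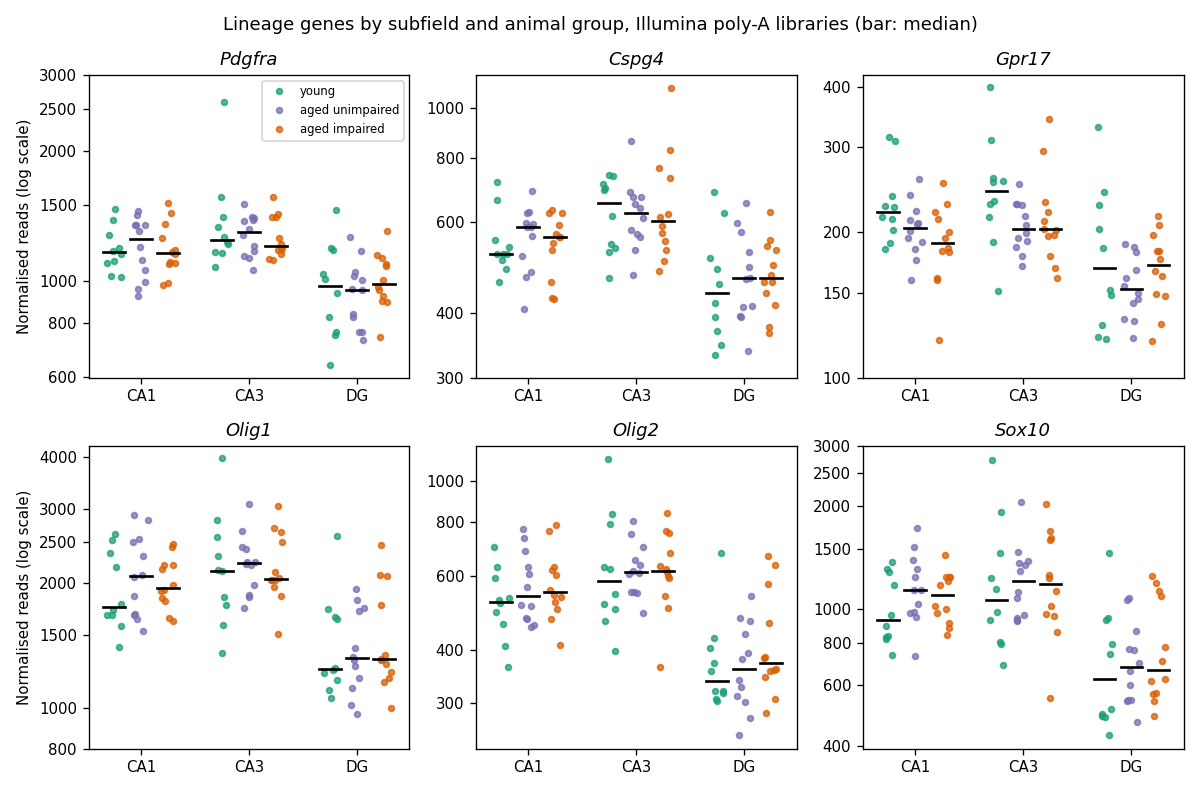
Normalised reads (log scale) of the 6 members in the Illumina libraries (34 a subfield), by subfield and animal group, with the median of a group as a bar. DG medians are lowest for every member, with ranges that overlap those of CA1 and CA3, whereas the animal groups overlap within each subfield and a single young CA3 library reaches 2591 for Pdgfra.

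Pdgfra had 641 normalised reads in the lowest DG library, a median of 963 and a highest value of 1464. In CA3 it ranged from 1060 to 2591 with a median of 1244, so that 24 of the 34 DG libraries lay below every CA3 library. The difference was 0.43 on the log2 scale (SE 0.057, adjusted p = 4.216e-10, limma) on Illumina and 0.37 (SE 0.087, adjusted p = 3.931e-04) on Ion Proton, or 1.34-fold and 1.29-fold.

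Cspg4 ranged from 332 to 685 normalised reads in DG (median 464) and from 469 to 1091 in CA3 (median 616). It was lower in DG than in CA3 of the same rat in 33 of 34 rats on Illumina and in 28 of 34 on Ion Proton. The log2 difference was 0.43 (SE 0.060, adjusted p = 2.08e-09, limma) and 0.56 (SE 0.10, adjusted p = 4.097e-06) on the respective platforms.

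Gpr17, the receptor of committed precursors, gave the fewest reads of the 6 genes. Its DG libraries ranged from 119 to 331 normalised reads (median 161) and its CA3 libraries from 151 to 399 (median 213), and the ranges overlapped over most of their length. CA3 exceeded DG by 0.40 on the log2 scale on Illumina (SE 0.072, adjusted p = 1.171e-06, limma) and by 0.62 on Ion Proton (SE 0.14, adjusted p = 3.967e-04).

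Among the transcription factors, Olig1 ranged from 969 to 2588 normalised reads in DG (median 1306) and from 1352 to 3968 in CA3 (median 2134). Olig2 ranged from 253 to 677 in DG (median 360) and from 366 to 1126 in CA3 (median 612). Sox10 ranged from 431 to 1455 in DG (median 678) and from 551 to 2732 in CA3 (median 1136). Each of these genes had overlapping ranges, with DG below CA3 of the same rat in 28, 29 and 27 of 34 rats. The log2 differences on Illumina were 0.63 for Olig1 (SE 0.077), 0.68 for Olig2 (SE 0.077) and 0.74 for Sox10 (SE 0.10), with adjusted p from 8.19e-13 to 1.714e-09 (limma). On Ion Proton they were 0.71, 0.72 and 0.78.

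CA1 also exceeded DG. All 6 members were called higher in CA1, against 13.4% of all genes called higher and 13.5% called lower. Pdgfra had a median of 1169 normalised reads in CA1 (925 to 1515), Cspg4 559 (407 to 719), Gpr17 205 (120 to 316), Olig1 1945 (1398 to 2907), Olig2 532 (365 to 789) and Sox10 1086 (732 to 1720). Cspg4 had the smallest log2 difference on Illumina, 0.24 (SE 0.060, adjusted p = 5.289e-04, limma), yet 0.52 (SE 0.10) on Ion Proton. Gpr17 likewise differed by 0.31 (SE 0.072) on Illumina and 0.65 (SE 0.14) on Ion Proton. Pdgfra differed by 0.30 and 0.25 on the 2 platforms, Olig1 by 0.51 and 0.47, Olig2 by 0.52 and 0.42, and Sox10 by 0.61 on both. In the WT table, Gpr17 was the single member of the 6 that did not pass in CA1 minus DG (0.15, SE 0.097, adjusted p = 0.187, limma).

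Within single rats, DG held the lowest of the 3 values of Pdgfra in 31 of 34 rats on Illumina and 25 on Ion Proton. The corresponding counts were 28 and 25 for Cspg4, 26 and 23 for Gpr17, 28 and 26 for Olig1, 28 and 27 for Olig2, and 26 and 28 for Sox10. Of the 27 rats that gave none of the 10 libraries, 3 had a CA3 library nearest to CA1 on Ion Proton. The same CA3 libraries were nearest to CA1 in the WT table and nearest to CA3 on Illumina. In the 27 rats DG was lowest for Pdgfra in 25 on Illumina and 20 on Ion Proton. The counts were 23 and 20 for Cspg4, 22 and 18 for Gpr17, 24 and 21 for Olig1, 24 and 24 for Olig2, and 22 and 24 for Sox10. Without the 10 libraries nearer to another subfield all 6 members were still called in both comparisons with DG (background 15.9% higher in CA3 and 14.0% in CA1), with CA3 minus DG differences on Illumina from 0.39 (Gpr17) to 0.82 (Sox10).

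**Figure D2:**
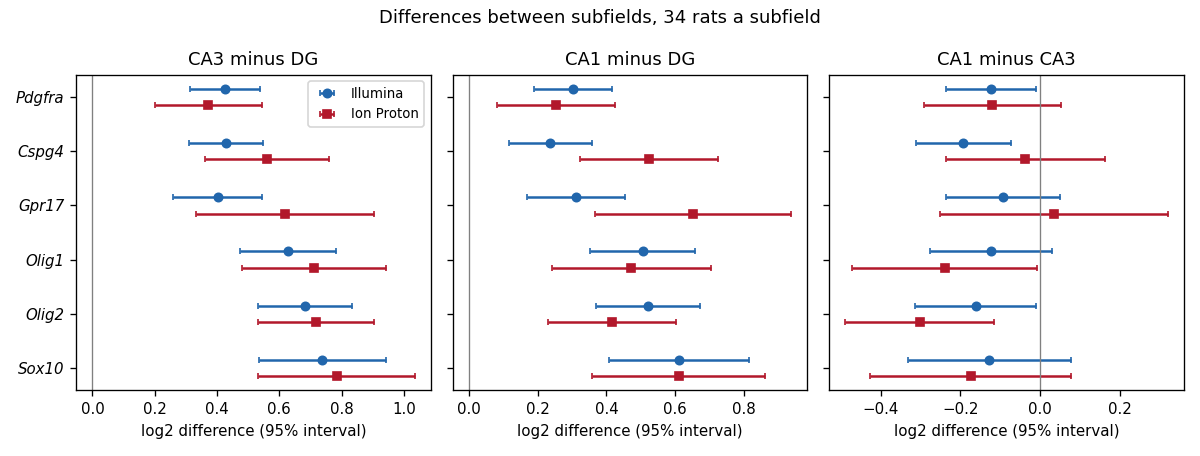
Log2 difference of each member between subfields with its 95% interval (limma, 34 libraries a subfield), Illumina as circles and Ion Proton as squares. All intervals lie above 0 against DG, whereas the CA1 minus CA3 estimates are between -0.30 and 0.03 and most intervals hold 0.

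Over all rats, CA1 and CA3 were not separated by the test in both tables. For Olig1, Olig2 and Sox10 this pooled result covered opposite directions in the series of rat numbers. In CA1 minus CA3, 0 of 6 members met the criterion in both tables (background 7.26% higher and 7.09% lower), although 1 of 6 passed on Illumina alone and 3 of 6 had an unadjusted p under 0.05 there. Cspg4 passed on Illumina, where it was lower in CA1 by 0.19 on the log2 scale (SE 0.060, adjusted p = 0.00783, limma), while on Ion Proton the difference was -0.04 (95% interval -0.24 to 0.16). Olig2 passed on Ion Proton only (-0.30, SE 0.094, adjusted p = 0.0163) and was at -0.16 on Illumina (adjusted p = 0.0899). For Pdgfra the difference was -0.12 on both platforms. The order of medians was CA3, CA1, DG for all 6 genes on Illumina. In rats numbered below 9000, Sox10 was higher in CA1 than in CA3 in 2 of 18 rats on Illumina (mean log2 ratio -0.55 ± 0.49, SD, n = 18), against 14 of 16 rats from 9000 up (0.35 ± 0.34, SD, n = 16). The counts were 2 of 18 and 14 of 16 for Olig1, and 2 of 18 and 12 of 16 for Olig2. These 3 members were called lower in CA1 in rats below 9000 alone, with the values of both series given further on. On Illumina, Pdgfra was higher in CA1 in 3 of 18 and 6 of 16 rats, and Cspg4 in 4 of 18 and 2 of 16. Their mean log2 ratios were below 0 in both series, -0.12 and -0.12 for Pdgfra and -0.15 and -0.24 for Cspg4. For Gpr17 the means were -0.19 and 0.01. Without the 10 libraries nearer to another subfield Olig2 was called lower in CA1 over all rats (-0.21 on Illumina and -0.37 on Ion Proton), where 8.71% of all genes were.

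The other lineage genes followed the members in part. Beside the counts of each list, 14.1% of all genes were called higher in CA3 than in DG and 13.4% higher in CA1 than in DG, and the median over all genes was 0.01 and 0.00 on the log2 scale. Of 15 further precursor genes, 12 were tested and 6 were higher in CA3 than in DG with 0 lower, led by Sox6 (0.51 on the log2 scale, a transcription factor that holds precursors undifferentiated), the matrix protein gene Matn4 (0.50) and C1ql1 (0.43). The list's median was 0.14, against 0.53 for the members. In CA1 minus DG 4 of the 12 were higher, again led by Matn4 (0.56), Sox6 (0.43) and C1ql1 (0.23). Of 8 genes of newly formed oligodendrocytes, 7 were tested, and 5 were higher in CA3 than in DG, with the largest changes in Bcas1 (0.82), Zfp488 (0.77) and Enpp6 (0.66). In CA1 minus DG 3 of the 7 were higher, Bcas1 (0.77), Bmp4 (0.48) and Tcf7l2 (0.39), and 1 was lower, the kinase gene Fyn (-0.21), which fell outside the naming rule and was picked after its value was seen.

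Of 12 further transcription factors of the lineage, 6 were higher and 1 lower in CA3 than in DG. Sox5 (1.00), Nkx6-2 (0.89) and the myelin regulator Myrf (0.84) had the largest differences, and Id2, an inhibitor of differentiation named after its value was seen, was the lower one (-0.43). In CA1 minus DG 5 were higher and 1 was lower. Those higher included Nkx6-2 (0.72) and Myrf (0.69), and Hes1 was lower (-0.35, also named after its value was seen). Between CA1 and CA3, Hes1 was lower in CA1 (-0.67) and Id4 higher (0.28), 1 of 12 each way, where 7.09% of all genes were lower and 7.26% higher. Among the PDGF ligands and the pericyte receptor, 1 of 5 was higher in CA3 than in DG, the ligand gene Pdgfc (0.61), and 2 of 5 in CA1 than in DG, Pdgfc (0.61) and Pdgfrb (0.27), the receptor of pericytes. With 5 genes, these counts are given as values only.

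Myelin genes moved between subfields with the members, and by more. All 12 genes of the mature oligodendrocyte list were higher in CA3 than in DG (median 0.89 on the log2 scale) and all 12 in CA1 than in DG (median 0.71), and 0 of 12 were called between CA1 and CA3 over all rats. The summed level of the list was 48537 to 234953 normalised reads in DG (median 81380), 80836 to 310969 in CA1 (median 137501) and 58731 to 411719 in CA3 (median 166494). With the mean log2 level of this list as a covariate, CA3 minus DG remained called for Pdgfra (0.31, adjusted p = 6.974e-05, limma), Cspg4 (0.32, adjusted p = 1.526e-04), Gpr17 (0.19, adjusted p = 0.049), Olig1 (0.15, adjusted p = 0.00127) and Olig2 (0.22, adjusted p = 1.333e-05). Sox10 fell to 0.08 (adjusted p = 0.128) and was no longer called. In the same fit 8.89% of all genes were called higher in CA3 than in DG and 11.1% higher in CA1 than in DG. For CA1 minus DG 0 of 6 members were called with the covariate, the Illumina differences being 0.21 for Pdgfra, 0.14 for Cspg4, 0.13 for Gpr17, 0.11 for Olig1, 0.13 for Olig2 and 0.06 for Sox10. In CA1 minus CA3 1 of 6 was called, Olig2 (-0.09 on Illumina and -0.20 on Ion Proton, background 7.15% lower in CA1).

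Across libraries the members fell apart in how closely they followed myelin genes. After the mean of each of the 9 subfield and animal groups was subtracted, the correlation with Mbp (myelin basic protein) over all Illumina libraries (34 of each subfield) was 0.94 for Olig1, 0.93 for Sox10 and 0.89 for Olig2, but 0.48 for Gpr17, 0.34 for Cspg4 and 0.31 for Pdgfra. On Ion Proton the same values were 0.68, 0.84, 0.78, 0.28, 0.26 and 0.06. These values still hold the difference between the series of rat numbers. With the means of the 18 combinations of subfield, animal group and series subtracted, a step added after the data were seen, the Illumina values were 0.89 for Olig1, 0.88 for Sox10, 0.81 for Olig2, 0.33 for Gpr17, 0.25 for Cspg4 and 0.08 for Pdgfra. The Ion Proton values were then 0.60, 0.76, 0.64, 0.38, 0.39 and -0.12. The libraries are 3 from each of 34 rats and share depth and dissection, so the values are descriptions. Olig1 and Olig2 correlated with each other at 0.91 on Illumina and 0.68 on Ion Proton. Cspg4 and Gpr17 correlated at 0.71 and 0.86. With series means kept in, Pdgfra and Cspg4 correlated at 0.74 on Illumina (0.61 with them removed) but at 0.06 on Ion Proton and 0.18 in the WT table.

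**Figure D3:**
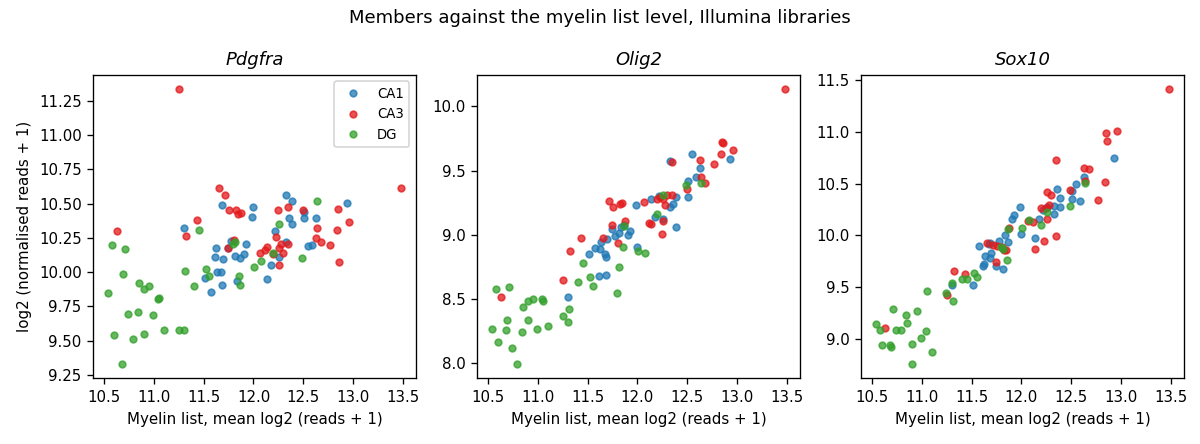
Log2 level of Pdgfra, Olig2 and Sox10 against the mean log2 level of the 12 myelin genes in the Illumina libraries (34 points a subfield), coloured by subfield. Sox10 and Olig2 follow the myelin list closely and Pdgfra more loosely, and most DG libraries lie at the lower left. Over the libraries shown, the correlations of Sox10, Olig2 and Pdgfra with the myelin gene Mbp were 0.95, 0.92 and 0.55. With the group means subtracted they were 0.93, 0.89 and 0.31.

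Lists of genes of other cell types that could contribute to Pdgfra and Cspg4 were read beside them. The summed level of 8 fibroblast and leptomeningeal genes was 121 to 874 normalised reads in DG (median 425), 374 to 10156 in CA1 (median 667) and 362 to 27127 in CA3 (median 688). For 8 pericyte genes it was 333 to 1561 in DG (median 1107), 554 to 2520 in CA1 (median 1443) and 509 to 4252 in CA3 (median 1084). In CA3 minus DG 2 of 7 tested fibroblast genes were called, Lum (1.53) and Dcn (0.97), and 0 of 8 pericyte genes, where 14.1% of all genes were called higher. In CA1 minus DG the fibroblast genes Dcn (1.37) and Igf2 (1.15) and the pericyte gene Abcc9 (0.61) were called, 2 of 7 and 1 of 8, where 13.4% of all genes were. All 8 pericyte genes nevertheless had differences above 0 in both comparisons, with a median of 0.46 in CA1 minus DG, where that of the members was 0.41, and of 0.23 in CA3 minus DG, where it was 0.53. The medians of the fibroblast list were 0.79 and 0.61. With the fibroblast list level as a covariate, all 6 members stayed called in CA3 minus DG (background 10.7%), Pdgfra at 0.31 on Illumina, but 5 of 6 in CA1 minus DG (background 9.88%), where Pdgfra fell to 0.18 on Illumina and 0.10 on Ion Proton (adjusted p = 0.331, limma). With the pericyte list level, 6 of 6 stayed called in CA3 minus DG (background 13.1%) and 4 of 6 in CA1 minus DG (background 10.6%), where Cspg4 fell to 0.12 on Illumina (adjusted p = 0.0704) and Pdgfra to 0.15 on Ion Proton (adjusted p = 0.122). Of 8 astrocyte genes, 3 were higher in CA3 than in DG (Gjb6 by 0.34, Aldoc by 0.21 and Aldh1l1 by 0.20) and 2 in CA1 than in DG. Of 8 microglia genes, 6 and 3 were higher. Because a list level can itself differ between subfields, these fits cannot divide a difference between subfield and cell type. The part of other cell types in the members' differences was not tested.

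The size of the CA3 excess depended on the rat number series for the transcription factors and not detectably for Pdgfra and Cspg4. In rats numbered below 9000, Sox10 was higher in CA3 than in DG of the same rat in 18 of 18 rats on Illumina, with log2 ratios from 0.80 to 1.99 (median 1.26). In rats numbered from 9000 up it was higher in 9 of 16, with ratios from -1.18 to 1.15 (median 0.06). The ratios of Olig1 were higher in 18 of 18 and 10 of 16 rats (medians 0.98 and 0.25), and those of Olig2 in 18 of 18 and 11 of 16 (medians 1.05 and 0.33). For Pdgfra the counts were 17 of 18 and 15 of 16, with medians of 0.40 and 0.34. For Cspg4 they were 18 of 18 and 15 of 16, with medians of 0.43 and 0.47. Mbp behaved like the transcription factors, with CA3 higher in 18 of 18 and 8 of 16 rats (medians 1.64 and -0.07).

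**Figure D4:**
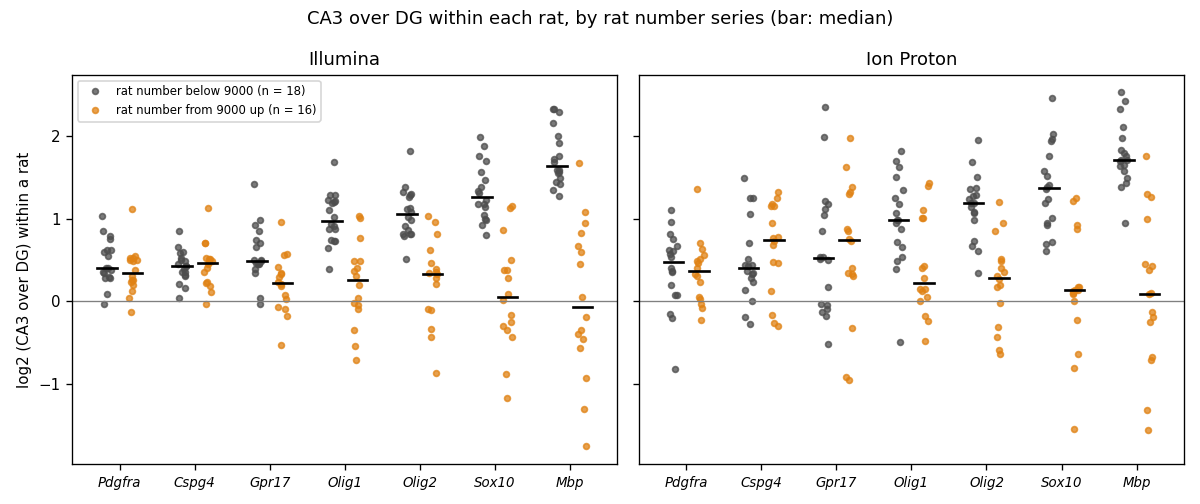
Log2 ratio of CA3 over DG within each rat for the 6 members and Mbp, rats numbered below 9000 (18) and from 9000 up (16), Illumina on the left and Ion Proton on the right, with medians as bars. The Illumina medians of the series are 1.26 and 0.06 for Sox10, 0.98 and 0.25 for Olig1, 1.05 and 0.33 for Olig2 and 0.40 and 0.34 for Pdgfra, and the ranges of the series overlap for every gene.

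The difference between the series was tested over all genes, in a fit with the 6 combinations of subfield and series that was added after the data were seen. For CA3 minus DG the below-9000 difference exceeded the other by 1.25 on the log2 scale for Sox10 on Illumina (SE 0.16, adjusted p = 1.276e-10, limma) and by 1.25 on Ion Proton (SE 0.22, adjusted p = 3.84e-06). The excess was 0.80 for Olig1 (Ion Proton 0.56) and 0.82 for Olig2 (Ion Proton 0.92), all with adjusted p under 0.05 in both tables. Gpr17 passed on Illumina only (0.37, adjusted p = 0.0202; Ion Proton -0.01). For Pdgfra the excess was 0.11 (95% interval -0.08 to 0.30) and for Cspg4 -0.01 (95% interval -0.21 to 0.18), neither past the threshold. The series effect was not particular to these genes, since 17.2% of 13907 genes differed between series in CA3 minus DG and 13.9% in CA1 minus CA3, but 0.108% in CA1 minus DG. In CA1 minus DG 0 of 6 members differed between the series (smallest adjusted p on Illumina 0.267, for Sox10). Without the 10 libraries nearer to another subfield the CA3 minus DG excess was 1.24 for Sox10, 0.79 for Olig1 and 0.80 for Olig2 on Illumina, and on Ion Proton it was 1.14, 0.52 and 0.87, with Olig1 no longer past the threshold there (adjusted p = 0.103).

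Which members were called depended on the series. In rats from 9000 up, 2 of 6 members were called in CA3 minus DG (background 10.6%), Pdgfra (0.37, adjusted p = 9.364e-05, limma) and Cspg4 (0.44, adjusted p = 7.968e-06), while Sox10 was at 0.08 (adjusted p = 0.646). In rats below 9000 all 6 were called (background 12.4%), with Olig1 at 1.00, Olig2 at 1.07 and Sox10 at 1.33. In CA1 minus CA3 of these rats 3 of 6 were called lower in CA1 (background 12.0%), Olig1 (-0.42), Olig2 (-0.45) and Sox10 (-0.55). In rats from 9000 up the Illumina values of the same genes turned to 0.21, 0.16 and 0.35, with 0 called. There 1.64% of all genes were called lower in CA1, and the share called higher is not reported here. In CA1 minus DG 5 of 6 were called in rats from 9000 up (background 10.5%), where Gpr17 missed on Illumina (0.22, adjusted p = 0.0914), and 3 of 6 in rats below 9000 (background 7.98%). The calls missed below 9000 were missed on Ion Proton only, for Pdgfra (0.29, adjusted p = 0.125), Gpr17 (0.46, adjusted p = 0.185) and Olig1 (0.34, adjusted p = 0.138). Their Illumina differences in these rats were 0.35, 0.39 and 0.58, no smaller than the 0.30, 0.31 and 0.51 over all rats.

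The levels themselves also differed between series inside a subfield. In DG, Sox10 had a median of 543 normalised reads below 9000 and 937 from 9000 up, a log2 difference of -0.73 (SE 0.11, adjusted p = 2.052e-07, limma), and in CA3 1320 and 943, a log2 difference of 0.52 (SE 0.11, adjusted p = 3.841e-05). Olig2 was likewise lower in DG (-0.50) and higher in CA3 (0.32) of rats below 9000. Pdgfra, in contrast, was lower below 9000 in all 3 subfields on Illumina, by 0.23 in CA1, 0.22 in CA3 and 0.33 in DG on the log2 scale, and passed in both tables in CA3 and DG. Of the 6 members, 3 were called lower below 9000 within CA1, 2 higher and 1 lower within CA3, and 3 lower within DG. Between series, 9.11% of all genes were called in either direction within CA1, 22.9% within CA3 and 6.79% within DG. All 3 animal groups were present in each series.

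The second comparison asked about age. Aged rats were set against young rats within each subfield, and a gene was called when its unadjusted p was under 0.01 on Illumina and the change repeated on Ion Proton with a one-sided p under 0.05. By this rule 0 of 6 members were called in CA1 (background 0.844% of genes), CA3 (0.373%) or DG (1.08%), and 0 had an adjusted p under 0.05 (limma). At an unadjusted p under 0.05 on Illumina, 1 of 6 passed in CA1 and 0 in CA3 and DG. Both platforms measured 1 set of RNA preparations, and a repeat on Ion Proton therefore bears on technical error only.

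Gpr17 had a negative age difference in all 3 subfields on Illumina. In CA1 on Illumina it ranged from 185 to 316 normalised reads in young rats (median 220), from 159 to 257 in aged unimpaired rats (median 205) and from 120 to 254 in aged impaired rats (median 190). Of 24 aged libraries 19 lay below the young median, and the ranges of all 3 groups overlapped. The log2 difference was -0.22 (SE 0.091, unadjusted p = 0.0194, adjusted p = 0.637, limma), but on Ion Proton it was 0.04 (95% interval -0.43 to 0.52). In CA3 the difference was -0.21 on Illumina (p = 0.0588, adjusted p = 0.999) with 21 of 24 aged libraries below the young median, and -0.31 on Ion Proton with 13 of 24 below. In DG the platforms differed in sign, -0.14 and 0.15. In the WT table Gpr17 was at -0.33 in CA1 (unadjusted p = 0.0123, adjusted p = 0.567), -0.28 in CA3 and -0.23 in DG.

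For the other 5 members the age differences on Illumina lay between -0.10 and 0.16 on the log2 scale. Pdgfra was at 0.01 in CA1 (95% interval -0.14 to 0.16), -0.10 in CA3 and 0.02 in DG. The largest was Sox10 in CA1 at 0.16 (95% interval -0.06 to 0.39), and on Ion Proton it was 0.31 (unadjusted p = 0.0492, adjusted p = 0.935, limma). Fixed lists of the lineage gave the same count in each subfield: 0 of the tested further precursor genes, newly formed oligodendrocyte genes, lineage transcription factors, PDGF ligands and myelin genes were called for age in either direction. In the same libraries the astrocyte gene Gfap was called higher with age in CA1 (0.44), CA3 (0.45) and DG (0.41). It was the 1 of 8 astrocyte genes called in each subfield, with medians over the list of 0.05, 0.04 and 0.02. Of 8 microglia genes 3, 1 and 5 were higher.

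Each aged group was also set against the young rats alone, the 2 comparisons sharing the young libraries. For aged unimpaired minus young 0 of 6 members were called in CA1 (background 0.671%), CA3 (0.287%) or DG (0.663%), and for aged impaired minus young 0 of 6 in CA1 (0.829%), CA3 (0.351%) or DG (0.991%). Gpr17 in CA1 was at -0.17 in unimpaired rats (p = 0.109) and -0.28 in impaired rats (p = 0.0116, adjusted p = 0.444, limma) on Illumina, and at 0.07 and 0.01 on Ion Proton.

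**Figure D5:**
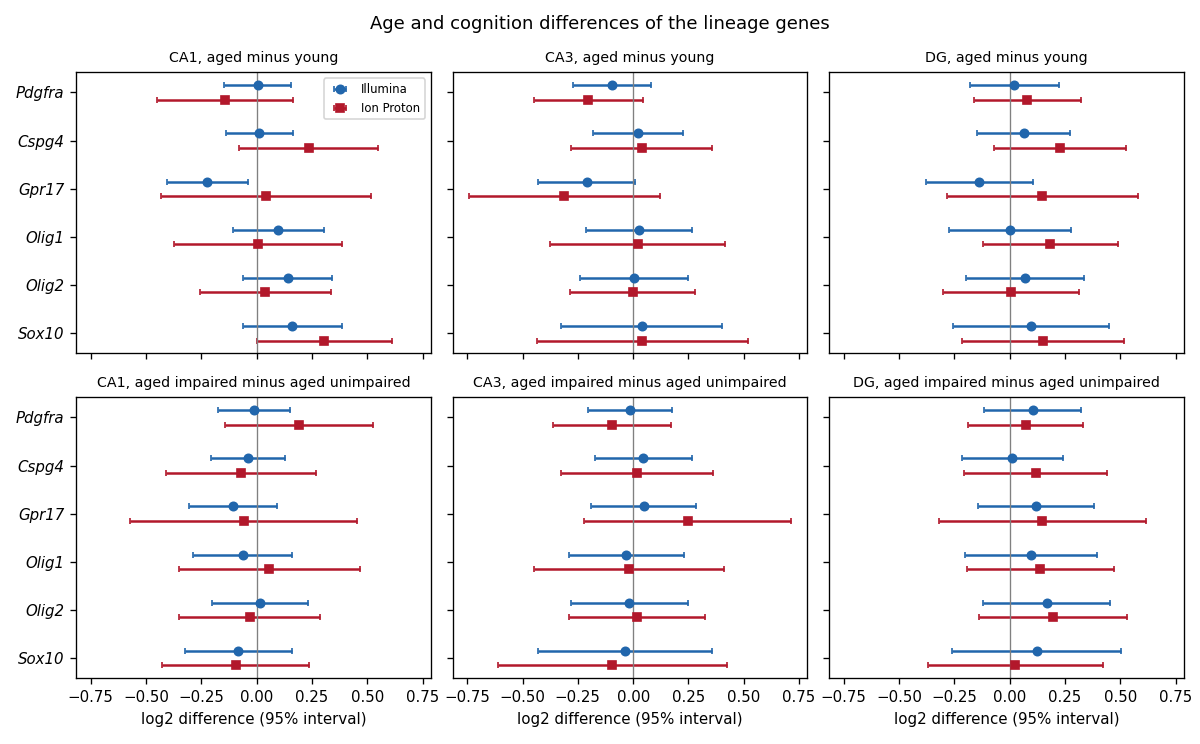
Log2 difference of each member for aged minus young (top) and aged impaired minus aged unimpaired (bottom) in CA1, CA3 and DG, with 95% intervals from limma, Illumina as circles and Ion Proton as squares. All intervals hold 0 other than those of Gpr17 (Illumina) and Sox10 (Ion Proton) for age in CA1, and Gpr17 in CA1 is at -0.22 on Illumina but 0.04 on Ion Proton.

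The third comparison, aged impaired against aged unimpaired rats, addressed cognition within old age. By the same rule 0 of 6 members were called in CA1 (background 0.599%), CA3 (0.0359%) and DG (0.138%), and 0 of 6 had an unadjusted p under 0.05 on Illumina in any subfield (limma). The Illumina differences ran from -0.11 (Gpr17 in CA1) to 0.17 (Olig2 in DG) on the log2 scale, with 95% intervals between -0.43 and 0.50. Pdgfra in DG had a median of 956 normalised reads in unimpaired rats (731 to 1265) and 987 in impaired rats (744 to 1306), with overlapping ranges. Olig2 in DG had medians of 362 (253 to 536) and 373 (286 to 668). In the WT data, 3 members had positive differences in DG with an unadjusted p under 0.05, Gpr17 (0.37, p = 0.0217), Cspg4 (0.19, p = 0.0345) and Olig1 (0.28, p = 0.0397), each with an adjusted p of 0.488 (limma). Their Illumina values were 0.12, 0.01 and 0.10. None of the fixed lists named above held a gene called for cognition in any subfield.

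Age and cognition effects were then compared between subfields in a fit of all libraries of a table. With limma 0 of 6 members had effects that differed between any pair of subfields, the smallest unadjusted p being 0.141 over both platforms and both effects, and 0 genes of all tested were called in both tables. The spread (SD) between the libraries of a subfield was 13.7% to 20.1% of the mean for Pdgfra and Cspg4 on Illumina and 21.5% to 36.1% for Sox10.

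How well a member was measured also differed. Within groups, the Illumina and Ion Proton values of the same RNA correlated over all libraries (34 a subfield) at 0.87 for Olig2, 0.86 for Sox10, 0.74 for Pdgfra, 0.71 for Olig1, 0.51 for Cspg4 and 0.37 for Gpr17. With the WT table the values for Gpr17 and Cspg4 were 0.12 and 0.13. Gpr17 on Ion Proton rested on 19 to 336 reads per library.

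Finally, the genes with the most similar pattern were listed for each member, over all Illumina libraries (34 a subfield, 3 from each rat) after the group means were subtracted. Sox10 was most like Myrf (r = 0.97, Ion Proton 0.93), Slc6a9 (0.97, Ion Proton 0.87) and the myelin lipid enzyme gene Fa2h (0.97, Ion Proton 0.88). Olig1 was most like Gna12 (0.95), Mbp (0.94) and Plekhb1 (0.94), and Olig2 most like Olig1 (0.91), the myelin enzyme gene Cnp (0.90) and Pip4k2a (0.90). The precursor genes had other neighbours. Pdgfra was most like Aldh2 (0.84, Ion Proton 0.50), Cav1 (0.82, Ion Proton 0.33), which encodes a caveolar protein abundant in vessels, and Itgb1 (0.82, Ion Proton 0.49). Cspg4 was most like Caskin2 (0.85), Plxnb1 (0.85) and Notch1 (0.83), with Ion Proton values of 0.80, 0.75 and 0.73. Gpr17 was most like Caskin2 (0.76), Sema6a (0.76) and the astrocyte adhesion gene Hepacam (0.75). With the means of the series also subtracted, the Illumina values of these genes ran from 0.71 (Pdgfra and Cav1, Ion Proton 0.09) to 0.96 (Sox10 and Myrf). The similarity is a description of these libraries.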

How the data were processed

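RNA from CA1, CA3 and DG of 34 rats was sequenced, and 3 tables were deposited. The authors trimmed reads (cutadapt 1.8.3), aligned the Illumina reads to rn5 with STAR 2.5, counted genes with featureCounts 1.4.4 and normalised with DESeq2 1.16.1. The Ion Proton reads were aligned with TopHat2 and Bowtie2. The library type and aligner of the WT table are not given in the sources used here, and the sources name a stranded and an unstranded kit, so antisense reads cannot be told apart. The deposited values are a signal, counts divided by size factors by the authors, and 100.0% were whole reads (tolerance 0.01 read) after multiplication by the size factor. Depth in units of 1000000 reads was 3.25 to 42.8 (Illumina), 4.47 to 21.4 (Ion Proton) and 3.54 to 20.6 (WT).

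Here limma 3.58.1 (R 4.3.3, trend) was fitted on log2(value + 1) for genes with a mean of at least 10, with Benjamini-Hochberg adjustment over all genes tested. Fold changes are on this scale. Subfield calls needed an adjusted p under 0.05 and 1 direction in both poly-A tables. Age and cognition calls needed p under 0.01 on Illumina and one-sided p under 0.05 on Ion Proton. Fits were tested on simulated data. Alternatives used edgeR 4.0.16 and DESeq2 1.42.0 on the whole reads, other scalings, covariates and subsets of rats. Same-numbered libraries come from 1 rat. The median correlation of their deviations was 0.087 (CA1 and CA3), 0.19 (CA1 and DG) and -0.032 (CA3 and DG). Named genes are the members, at most 3 called genes of each list and comparison with the largest change, the 3 genes most similar to each member, and the myelin genes Mbp and Mog. Some genes that this rule names are not reported here. Members and lists were chosen with earlier results of these data known.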

Additional observations from a re-analysis of the deposited data

Results flagged for a closer look

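Among the 10 young rats of a subfield, 10 of 36 sets of values (6 members, 3 subfields, Illumina and Ion Proton) held a highest value far from the rest by Dixon's ratio, where chance gives about 1 in 20, and the sets are not independent because the platforms read the same RNA. In CA3, 1 young library had 2591 normalised reads of Pdgfra on Illumina and 2004 on Ion Proton. Its summed level of the fibroblast and leptomeningeal list was the highest of 34 CA3 libraries, 27127 against a median of 688 on Illumina, as was that of the pericyte list, 4252 against 1084. The part of these cells in the Pdgfra value was not tested in that library.

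In DG, 1 young library was highest for Olig1 (2588 on Illumina, 1682 on Ion Proton), Olig2 (677 and 695) and Sox10 (1455 and 1340). Its myelin list level was the highest of 34 DG libraries, 234953 against a median of 81380. The level of DG markers in this library ranked 33 of 34 (1357 against a median of 5085 on Illumina) and that of CA3 markers 2 of 34 (16037 against 11881). By these markers it stood nearest to DG in both poly-A tables and nearest to CA3 in the WT table. On Ion Proton Olig2 also stood apart in 1 young CA3 library (1184), which had the highest myelin level of 34 CA3 libraries, and in 1 young CA1 library (673).

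The difference between subfields itself differed between the rat number series for 3 members in both tables (limma, adjusted p under 0.05). As below 9000 minus from 9000 up on Illumina, it differed in CA3 minus DG by 0.80 for Olig1, 0.82 for Olig2 and 1.25 for Sox10, and in CA1 minus CA3 by -0.64 for Olig1, -0.61 for Olig2 and -0.90 for Sox10. Series, site and supplier of the rats cannot be told apart here.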

How the results depend on the processing

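The number of members called kept its size in every alternative run for age, cognition, the aged groups against young and the differences between subfields in these effects, always 0. Between subfields, the 6 calls of CA1 minus DG became 3 in rats below 9000 (Pdgfra, Gpr17 and Olig1 lost, on Ion Proton only) and 0 with the myelin covariate, those of CA3 minus DG became 2 in rats from 9000 up, and the 0 of CA1 minus CA3 became 3 in rats below 9000, 1 with the myelin covariate (Olig2) and 1 without the 10 libraries nearer to another subfield (Olig2). The last setting and the fibroblast and pericyte covariates were added after seeing the data. The other alternatives gave 4 to 6 calls against DG and 0 for CA1 minus CA3. Replicate block on the rat: a paired fit left the counts of calls at 0 (CA1 minus CA3), 6 (CA1 minus DG), 6 (CA3 minus DG) and 0 (age and cognition between subfields), and changed no call. No paired analysis was possible within a subfield because each rat gave 1 library there. The cause of these shifts was not tested.

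In CA1 minus CA3 the Illumina log2 difference turned positive in rats from 9000 up for Gpr17 (0.014), Olig1 (0.21), Olig2 (0.16) and Sox10 (0.35). Other differences that changed sign were never called, and among them the largest was -0.28. For age, in rats below 9000, they were CA1 Pdgfra -0.029, CA3 Cspg4 -0.026, Olig1 -0.19, Olig2 -0.28, Sox10 -0.20, DG Gpr17 0.039, Olig2 -0.0021. With the myelin covariate they were CA1 Pdgfra -0.024, Cspg4 -0.018. Without the 10 libraries they were CA1 Pdgfra -0.0079, CA3 Olig1 -0.0095, Olig2 -0.0079, DG Pdgfra -0.013, Olig1 -0.048. With the WT table first they were CA1 Pdgfra -0.0003, Cspg4 -0.025, CA3 Cspg4 -0.085, Sox10 -0.0062, DG Pdgfra -0.052, Cspg4 -0.073, Olig1 -0.044. Without the 7 deeply sequenced rats they were CA3 Cspg4 -0.032, DG Pdgfra -0.049, Cspg4 -0.0053, Olig1 -0.16, Olig2 -0.037, Sox10 -0.12. In rats from 9000 up they were CA3 Gpr17 0.02, DG Pdgfra -0.055, Cspg4 -0.0069. With edgeR they were CA3 Olig1 -0.018, Olig2 -0.044, Sox10 -0.036, DG Pdgfra -0.0034, Olig1 -0.0068. With DESeq2 they were CA3 Olig1 -0.016, Olig2 -0.041, Sox10 -0.033, DG Pdgfra -0.0026, Olig1 -0.0077. With the series as a covariate they were CA3 Olig2 -0.0092. With quantile normalisation they were DG Olig1 -0.0036. For cognition, with quantile normalisation, they were CA1 Pdgfra 0.0035. With the series as a covariate they were CA1 Pdgfra 0.0085, CA3 Pdgfra 0.0029. In rats below 9000 they were CA1 Pdgfra 0.15, Cspg4 0.043, Olig1 0.058, Sox10 0.067, CA3 Pdgfra 0.036, Olig1 0.044, Olig2 0.12, Sox10 0.065. Without the 7 deeply sequenced rats they were CA1 Pdgfra 0.0104, CA3 Olig1 0.059, Olig2 0.076, Sox10 0.065, DG Cspg4 -0.0398. With the myelin covariate they were CA1 Pdgfra 0.021, Olig1 0.011, CA3 Olig1 0.029, Olig2 0.046, Sox10 0.061, DG Cspg4 -0.014. Without the 10 libraries they were CA1 Pdgfra 0.015, CA3 Cspg4 -0.016, Olig1 0.022, Olig2 0.059, Sox10 0.095. With the WT table first they were CA1 Pdgfra 0.084, CA3 Olig1 0.051, Olig2 0.092, Sox10 0.11, DG Pdgfra -0.0019. In rats from 9000 up they were CA1 Olig2 -0.026. With edgeR they were CA3 Sox10 0.0036. With DESeq2 they were CA3 Sox10 0.0057.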
